A study of Mus musculus with 16 samples.

Results

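The Polycomb gene loci are the surroundings of 10 mouse genes that encode subunits of the Polycomb repressive complexes, Ezh2, Ezh1, Eed, Suz12 and Jarid2 of PRC2 and Rnf2, Ring1, Cbx7, Pcgf6 and Kdm2b of PRC1. An accessible region belonged to a locus when its centre lay in the body of the gene or within 50 kb of any of its annotated transcription start sites (TSSs). By this rule 118 of the 81132 regions in the merged ATAC-seq list were members, and each belonged to 1 locus. The member closest to the edge of its window lay 124 bp inside it and the closest region left out lay 1130 bp beyond it, both at Jarid2. The regions come from SBROS, a mouse embryonic stem (ES) cell line of CGR8 origin in which both Sox2 alleles carry a SNAP-tag and 1 Oct4 allele carries a HALO-tag, on top of reporters for Sox1 and Brachyury. The cells grew on gelatin in serum with LIF, CHIR99021 and PD184352 and were sorted in G1 phase into SHOH (SOX2-high, OCT4-high), SHOL (SOX2-high, OCT4-low), SLOH (SOX2-low, OCT4-high) and SLOL (SOX2-low, OCT4-low), with 3 replicates of each and 12 libraries in all. ATAC-seq inserts adapters into open DNA with the Tn5 transposase, and the authors merged the peaks of all libraries into a list that states where a region lies but neither how strong it was nor in which library it was found. The depth behind a region is not in the list, no replicate error can be attached to a region, and the 4 populations were not compared.

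Polycomb proteins keep genes silent through chromatin. PRC2 methylates histone H3 through EZH2 or EZH1, and PRC1 adds ubiquitin to histone H2A through RNF2 or RING1. In ES cells both complexes gather at CpG-rich promoters of developmental regulators, whereas the loci described here are those of the genes encoding the complexes themselves.

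The sequences of interest are first those at the starts of the paralogous enzymes, since EZH2 and EZH1 can replace each other in PRC2, as can RNF2 and RING1 in PRC1. Each of these genes had a region over its 5′ start. The part of that region upstream of the start, at most 300 bp, was read from the RefSeq sequence of GRCm38.p6, the assembly that mm10 denotes, on the minus strand, which is the strand of all 4 genes. Ezh2 is at chr6:47595342-47595641, Ezh1 at chr11:101226464-101226684, Rnf2 at chr1:151500956-151501255 and Ring1 at chr17:34024681-34024821, and none of the stretches overlaps an annotated exon. Capitals mark CpG dinucleotides.
Ezh2: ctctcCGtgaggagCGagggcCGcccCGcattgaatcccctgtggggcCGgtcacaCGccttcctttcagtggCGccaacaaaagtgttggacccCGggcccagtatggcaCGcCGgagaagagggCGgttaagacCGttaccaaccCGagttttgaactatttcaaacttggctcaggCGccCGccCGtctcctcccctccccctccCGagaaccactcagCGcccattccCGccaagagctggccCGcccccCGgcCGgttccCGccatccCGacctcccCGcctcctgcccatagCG
Ezh1: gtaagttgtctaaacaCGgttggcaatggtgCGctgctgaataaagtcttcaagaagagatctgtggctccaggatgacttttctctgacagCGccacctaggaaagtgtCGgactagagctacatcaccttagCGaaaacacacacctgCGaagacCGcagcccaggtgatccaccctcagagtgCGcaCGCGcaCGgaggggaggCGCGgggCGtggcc
Rnf2: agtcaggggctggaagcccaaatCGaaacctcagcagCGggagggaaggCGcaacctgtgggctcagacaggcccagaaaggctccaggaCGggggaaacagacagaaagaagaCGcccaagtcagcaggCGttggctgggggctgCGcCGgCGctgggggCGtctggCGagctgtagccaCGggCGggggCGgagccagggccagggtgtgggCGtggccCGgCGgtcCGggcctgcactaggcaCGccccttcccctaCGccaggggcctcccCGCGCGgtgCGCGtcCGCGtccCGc
Ring1: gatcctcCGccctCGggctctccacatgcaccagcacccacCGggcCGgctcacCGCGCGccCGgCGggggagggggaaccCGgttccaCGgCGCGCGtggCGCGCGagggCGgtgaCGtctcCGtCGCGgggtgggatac
The stretches hold 26 CpG dinucleotides in 300 bp for Ezh2, 14 in 221 bp for Ezh1, 28 in 300 bp for Rnf2 and 22 in 141 bp for Ring1. None contains a word of the 13 transcription factor motifs that were searched.

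E2F words were found in the regions over the starts of Ezh2, Eed and Suz12, and these were chosen for printing after they had been found. The words searched were TTTCCCGC and TTTGGCGC on both strands, written in capitals here on the strand of the gene. The Ezh2 word lies in exon sequence at chr6:47595009-47595038 (minus strand), the Eed word in exon sequence shared with E230029C05Rik at chr7:89980775-89980804 (minus strand), and the Suz12 word upstream of its start at chr11:79992861-79992920 (plus strand).
Ezh2 E2F: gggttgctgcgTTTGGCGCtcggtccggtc
Eed E2F: tcgagagggcgGCGGGAAAaccgcccgccc
Suz12 E2F: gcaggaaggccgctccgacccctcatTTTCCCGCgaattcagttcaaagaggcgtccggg
Their centres lay 7 bp downstream of an Ezh2 start, 187 bp downstream of an Eed start and 216 bp upstream of the Suz12 start. Over whole regions an E2F word was present in 4 members (3.39%), the last of them at Cbx7 and not over a start, in 1.95% of the list and in 6.02% of the regions over a start of any protein-coding gene. A word match describes the sequence and does not show binding.

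The octamer ATGCAAAT, the word bound by OCT4 and other POU factors, occurred in 4 regions at the loci and in none of those over a member's own start. Octamers lay in the Utp6 promoter region of the Suz12 locus at chr11:79962704-79962763 (plus strand), in intergenic regions upstream of Jarid2 at chr13:44697189-44697248 and at chr13:44705642-44705701 (both plus strand), and in the Orai1 promoter region of the Kdm2b locus at chr5:123014973-123015002 (minus strand, a stretch that touches an exon of Gm2479 outside the word). Capitals mark the octamer or its reverse complement.
Suz12 octamer: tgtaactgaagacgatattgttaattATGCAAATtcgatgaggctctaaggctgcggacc
Jarid2 octamer: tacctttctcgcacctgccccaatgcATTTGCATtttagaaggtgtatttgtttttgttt
Jarid2 octamer: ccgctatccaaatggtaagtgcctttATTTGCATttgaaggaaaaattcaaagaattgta
Kdm2b octamer: gacccgaggttATTTGCATacgccacaccc
Over whole regions the octamer was present in 3.39% of the member regions and 2.66% of the list.

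The loci held between 7 regions at Ring1 and 16 at Eed, Cbx7 and Kdm2b. Ezh2, Suz12 and Pcgf6 had 8 regions each, Ezh1 had 12, Jarid2 13 and Rnf2 14. The 5 PRC2 genes together had 57 regions and the 5 PRC1 genes 61. The median was 12.5 regions per member gene, and all 10 counts were above the median of 6 regions over the 21938 protein-coding genes, whose quartiles were 3 and 10. The 3 genes with 16 regions had more than 94.5% of protein-coding genes, whereas Ring1 had more than 50.4%. Since longer genes have longer windows, the counts were divided by the window length. The median density was then 7.78 regions per 100 kb at the members and 5 over protein-coding genes. With windows of 50 kb Eed was the densest locus with 12.9 regions per 100 kb, followed by Cbx7 with 11.5 and Rnf2 with 10.9. At this window 9 of the 10 members were denser than the median gene. Ezh2 had 4.9 regions per 100 kb, close to the 4.41 of chromosome 6 as a whole. With windows of 10 kb in place of 50 kb the loci held 48 regions, and the gene bodies alone held 35. The order of the loci by count depended on the window, since at 10 kb Eed held 3 regions, Cbx7 and Rnf2 7 each and Kdm2b 12. These counts at 10 kb were not divided by the window length.

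**Figure D1:**
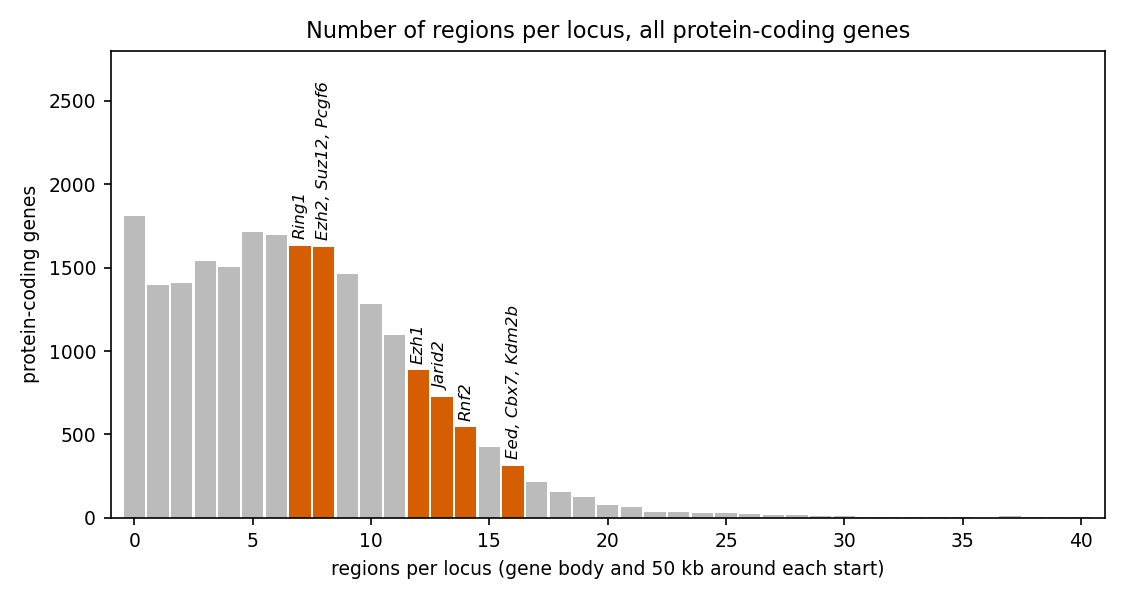
Number of regions per locus (x axis) against the number of protein-coding genes with that count (y axis), for 21938 genes; 18 genes with over 40 regions are not drawn. Orange bars hold the member genes named above them, which lie between 7 and 16 regions, to the right of the median of 6.

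Of the 118 regions, 35 (29.7%) were centred in the body of the member gene and 83 outside it, 42 of these in the body of another gene and 41 in no gene. The bodies made up 40.7% of the length of the loci. Over all protein-coding genes the bodies held 28.9% of the regions and made up 36.3% of the length. Regions over a start that were centred just upstream of it, as at Ezh2, Ezh1, Suz12, Rnf2 and Cbx7, count as outside. Promoters, which were taken to run from 1000 bp before a TSS of any gene to 100 bp after it, held 40 regions (33.9%, 95% Wilson interval 26.0 to 42.8%), introns 35 (29.7%), intergenic sequence 29 (24.6%) and exons 14 (11.9%). In the whole list 21% of the regions were in promoters, 35.1% in introns, 35.2% in intergenic sequence and 8.76% in exons. The windows are drawn around starts, so that the members' own promoters are always inside them. Of the 40 promoter regions, 18 were in a promoter of the member itself and 22 only in that of a neighbour, and without the former 22 of 100 regions (22%) were in promoters. The interval covers counting error only.

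**Figure D2:**
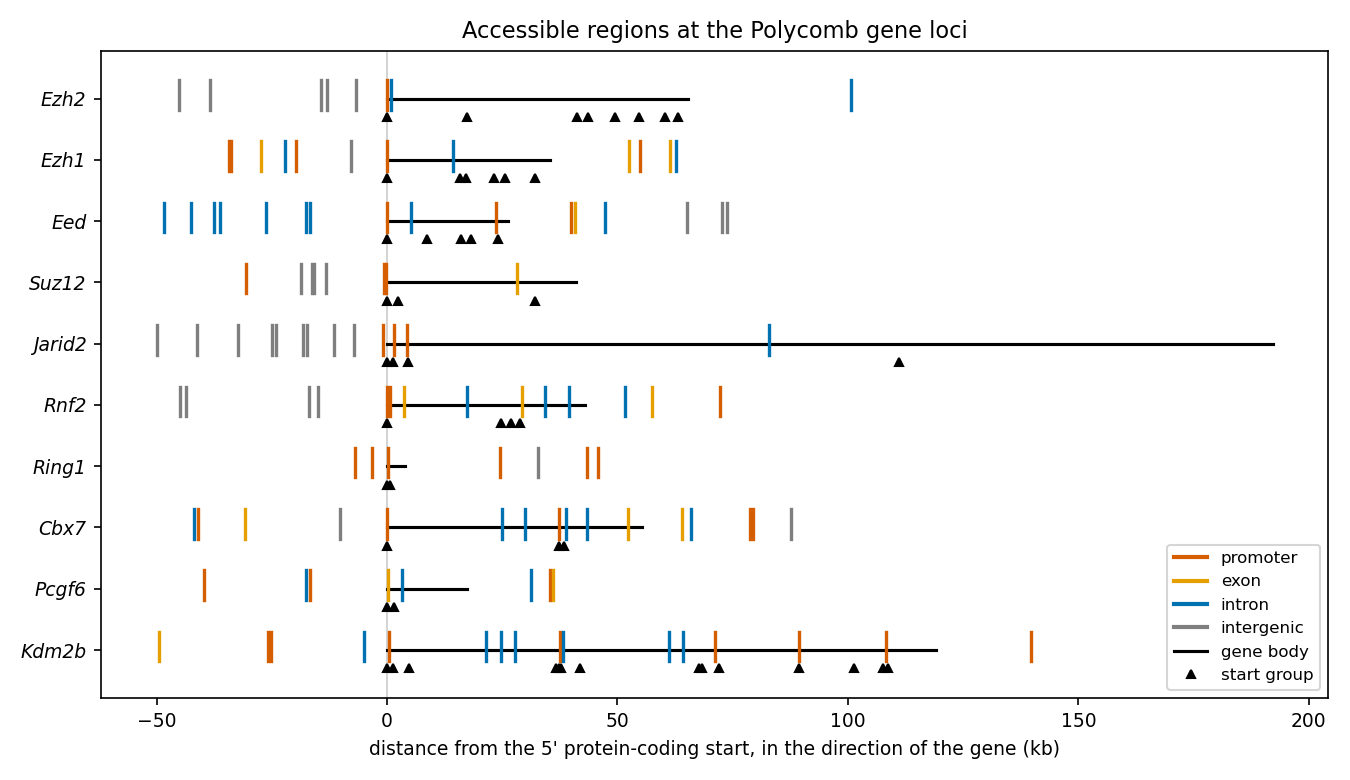
Accessible regions (vertical ticks, coloured by class) at each locus by distance in kb from the 5′ protein-coding start, in the direction of the gene; black lines are gene bodies and triangles mark start groups. The bodies of Ezh2, Ezh1, Suz12 and Ring1 hold 1 region each, that of Pcgf6 2 and those of Eed and Jarid2 3 each. Those of Rnf2, Cbx7 and Kdm2b hold 6, 6 and 11 regions.

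Every member gene had an accessible start. Annotated TSSs of a gene at most 500 bp apart were joined into start groups, and a group was inside a region when the region came within 100 bp of 1 of its TSSs. All 10 members had at least 1 start group inside a region, as did 64.0% of protein-coding genes. The outermost protein-coding start of the gene was inside a region at 8 members, and at 57.0% of protein-coding genes. By another rule, that the centre of a region lies in the gene's own promoter, 9 of 10 members had a promoter region, against 57.7% of protein-coding genes. The exception was Pcgf6, whose start lies inside a region that is centred 259 bp downstream of the nearest TSS.

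Start groups with a transcript of the protein-coding type were inside a region more often than those without one, at the members and over all protein-coding genes. The members had 51 start groups, of which 17 were inside a region (31.5% of all start groups of protein-coding genes were). Among the 22 groups with a protein-coding transcript 14 were inside, against 44.6% of such groups over all protein-coding genes. Among the 29 groups without one 3 were inside, against 7.08%. Ezh2 had 8 start groups and Ezh1 6, and in each gene only the group at the 5′ end was inside a region. All 3 groups of Cbx7 were inside, and 4 of the 14 groups of Kdm2b.

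**Figure D3:**
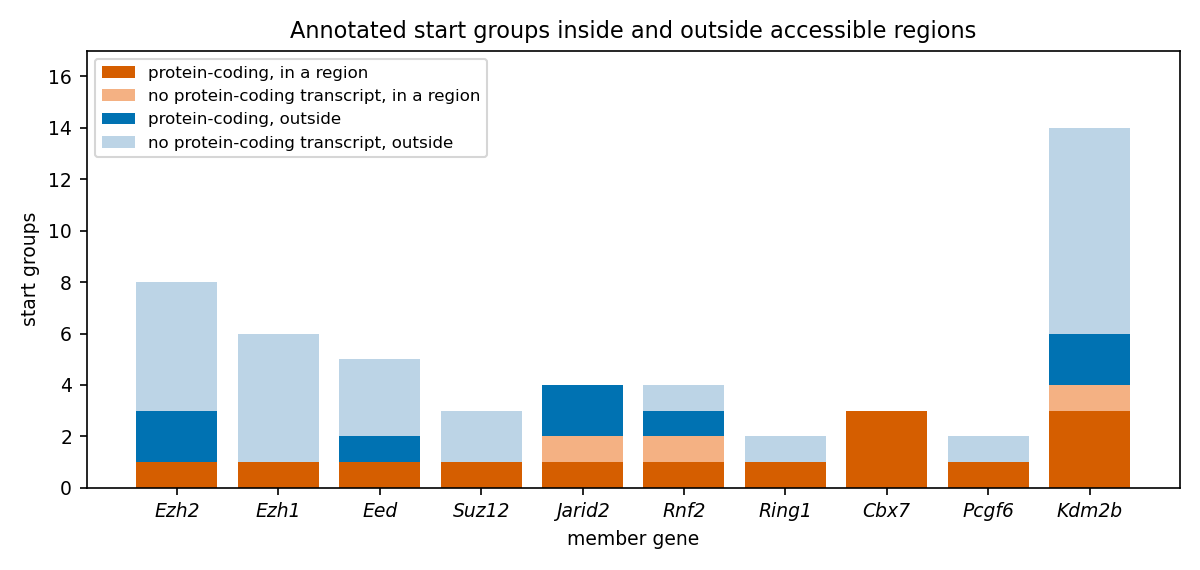
Start groups of each member gene (bars, number of groups), split by whether the group holds a protein-coding transcript and whether it is inside a region. Cbx7 has all 3 groups inside, and Kdm2b has 4 of 14.

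The regions at the loci had a median width of 323 bp (quartiles 216 and 545 bp), and for the whole list the median was 355 bp and the quartiles were 222 and 564 bp. A region may come from any number of the 12 libraries, and peaks that overlapped were merged, so a width is not that of a peak in a given library. Regions over a member's own start were wider, with a median of 613 bp over 16 regions against 300.5 bp over the other 102. Regions over starts of all protein-coding genes had a median of 706 bp. Regions under 200 bp made up 22.9% of the members and 19.8% of the list, and 2 of the 118 members were over 1000 bp, both at Eed, against 4.75% of the list.

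**Figure D4:**
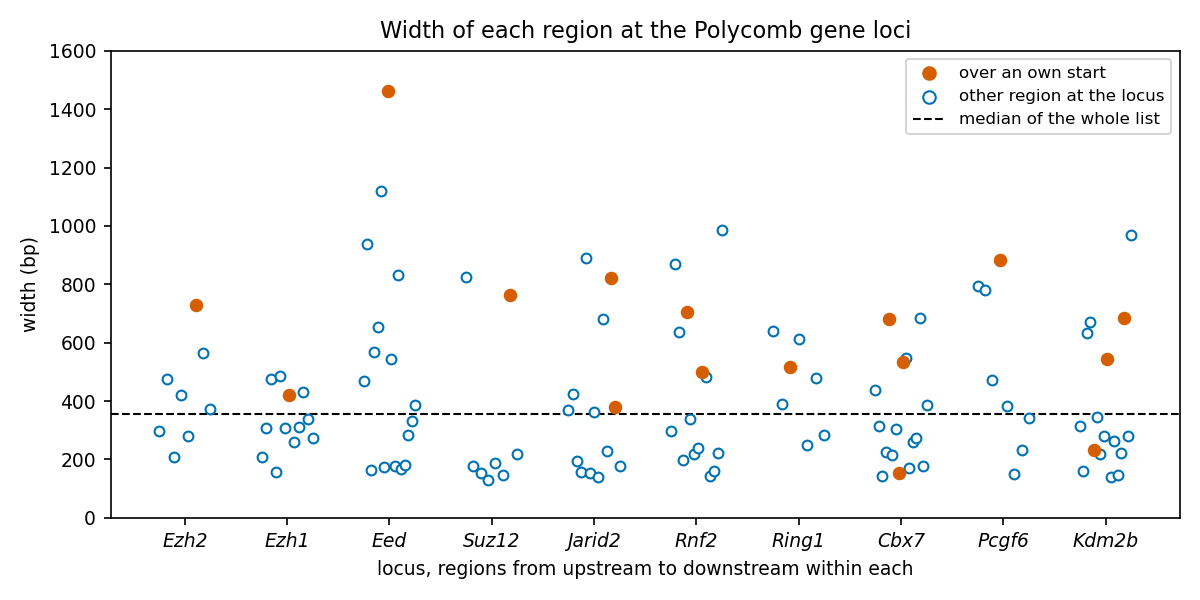
Width in bp of each of the 118 regions, ordered from upstream to downstream within a locus; filled points overlap a start of the member gene and the dashed line is the median of the whole list, 355 bp. The region over the Eed start is the widest point at 1463 bp, and the region at the 5′ start group of Kdm2b lies below the dashed line at 232 bp.

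Of the catalytic subunits of PRC2, Ezh2 encodes the main methyltransferase of dividing cells. The gene spans chr6:47530139-47595341 on the minus strand. Its start was covered by a region of 728 bp at chr6:47594979-47595706, reaching 365 bp upstream and 362 bp downstream of the outermost start. A neighbouring region of 566 bp at chr6:47594206-47594771 was intronic, with 33 CpG dinucleotides in its central 300 bp, a window that extends past the ends of regions narrower than itself. No further region touched the gene, and the stretch from there to its end, 64067 bp or 98.3% of the body, held none. This stretch contains 7 of the 8 start groups, of which the nearest to a region was 16196 bp away. Upstream were 5 intergenic regions, at 6749, 13119, 14264, 38435 and 45033 bp from the start. The central 300 bp of 4 of these were mostly masked as repeat (70.7% to 100%), whereas the one at 13119 bp was 39.3% masked. The last region was in an intron of Cul1, 100601 bp downstream of the Ezh2 start.

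Ezh1 encodes the second methyltransferase, which is associated with cells that divide little. The gene spans chr11:101191115-101226463 on the minus strand. The region over its start, at chr11:101226263-101226684, was 422 bp wide, narrower than that of Ezh2, and 12.5% of the protein-coding genes with a region at the 5′ start had a narrower one, against 43.9% for Ezh2. The gene body held 1 other region, of 261 bp, in an intron 14380 bp downstream of the start. The other regions were mainly those of neighbours, with 2 in the promoter of Wnk4 and 1 each in those of Ramp2 and Plekhh3. Only 3 of the 12 regions had an Ezh1 start as the closest TSS. The paralogues thus shared an accessible 5′ start and few regions in the body, and differed in what surrounded them, mostly intergenic sequence for Ezh2 and promoters, exons and introns of other genes for Ezh1.

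Eed and Suz12 encode the core subunits without which the methyltransferase is inactive. EED binds trimethylated histone H3 and stimulates the enzyme. At Eed, on the minus strand of chr7:89954654-89980983, the region over the start was 1463 bp wide (chr7:89980156-89981618). That was wider than the region at the 5′ start of 97.4% of the protein-coding genes with one, and it also covered a start of E230029C05Rik, a gene transcribed in the opposite direction. The median width at the 5′ start over these 12499 genes was 773 bp (quartiles 575 and 978 bp). Upstream of Eed 7 intronic regions were spread over the body of E230029C05Rik, between 16683 and 48345 bp from the Eed start. They included regions of 937 and 1118 bp, wider than the intronic median of 307 bp in the list. The locus also had the promoter region of Hikeshi, 832 bp wide, and an intronic region of Eed, 545 bp wide and 5191 bp downstream of the start. A region of 178 bp in the promoter of the innermost Eed start group did not reach that start, which lay 234 bp away.

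Suz12, which encodes the subunit that holds PRC2 together, spans chr11:79993106-80034123 on the plus strand. Its start lay at the downstream end of a region of 762 bp (chr11:79992542-79993303), with 564 bp of the region upstream of the start and 197 bp downstream. The central 300 bp of that region held 43 CpG dinucleotides, the second highest number among the members. A region of 147 bp (chr11:79992386-79992532) lay just upstream of it in the same promoter. In the body there was 1 region, 220 bp wide, 28275 bp downstream of the start and over an exon of Gm26563. The 4 intergenic regions between Utp6 and Suz12 were all narrow, at 130 to 188 bp. With 5 of 8 regions under 200 bp, Suz12 had a median width of 182.5 bp, the lowest of the 10 loci.

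Jarid2 encodes an accessory subunit that helps PRC2 to bind chromatin and is prominent in ES cells. It is the longest of the members, 192170 bp at chr13:44729474-44921643 on the plus strand. The regions were nearly all at or before the start. Upstream were 9 intergenic regions, between 7248 and 49937 bp from the outermost protein-coding start, with widths of 140 to 889 bp, and a promoter region of 230 bp was centred 947 bp upstream of that start. The outermost start group, with 3 transcripts, was not inside a region, and the nearest region was 771 bp away. The next group, with 10 transcripts and the longest annotated protein of the gene (1234 residues), was inside a region of 822 bp at chr13:44730571-44731392. A region of 381 bp at chr13:44733711-44734091 covered the start of a transcript without a coding sequence. Beyond it the body held 1 region, 177 bp wide, at chr13:44812404-44812580. The stretch from there to the end of the gene, 109063 bp or 56.8% of the body, held none, and it includes a start group with a transcript encoding 1029 residues that lay 28111 bp from a region. A Jarid2 TSS was the closest TSS for 12 of the 13 regions, the highest share of the loci.

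Of the catalytic subunits of PRC1, Rnf2 encodes the main ubiquitin ligase of ES cells, RING1B. The gene spans chr1:151458004-151500955 on the minus strand. Its start was covered by a region of 706 bp (chr1:151500660-151501365), and a second region of 338 bp lay 759 bp downstream of the start, in the promoter of Gm36527. In contrast to Ezh2, the body had regions along its length. Besides the one just named it held 5, of 220, 238, 501, 482 and 142 bp, and the longest stretch without a region was 13307 bp, 31.0% of the body. The region of 501 bp (chr1:151471456-151471956) overlapped coding sequence and came within 75 bp of the start of a transcript without a coding sequence, with 4 CpG dinucleotides in its centre. The widest region of the locus, 987 bp, covered the promoters of Swt1 and Trmt1l, which are transcribed in opposite directions, 72323 bp downstream of the Rnf2 start.

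Ring1 encodes the paralogous ligase, RING1A. It is the shortest member, 3889 bp at chr17:34020792-34024680 on the minus strand, in the major histocompatibility complex. The region over its start (chr17:34024306-34024821) was 516 bp wide and reached 141 bp upstream and 374 bp downstream of it. The centre also lay in the promoter of Mir219c. The rest of the gene, 3514 bp, held no region. Of the 7 regions of the locus 6 were in promoters, those of the neighbours belonging to Rxrb, Slc39a7 and Gm20427 (1 shared region of 639 bp), H2-Ke6, H2-K1, H2-K2, and Gm4152 and CR974462.6 (1 shared region). Ring1 thus had the largest share of promoter regions and the fewest regions nearest to its own start, 1 of 7.

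Cbx7 encodes the chromodomain subunit of canonical PRC1 that is most abundant in ES cells and that reads methylated histone H3. The gene spans chr15:79915807-79971119 on the minus strand. All 3 of its start groups were inside a region. The region at the outermost start was 681 bp wide (chr15:79970806-79971486). The other groups lay 37220 and 38351 bp downstream, with regions of 155 bp (chr15:79933825-79933979) and 533 bp (chr15:79931972-79932504), the latter ending 12 bp short of the group, and this last group held 5 transcripts, including that of the longest annotated protein of the gene (251 residues). These 3 start regions differed from those of the other members in composition. They held 8, 9 and 10 CpG dinucleotides in their central 300 bp, with a GC content of 54.0% to 54.7%, and the window of the 155 bp region includes flanking sequence. At the other loci all regions over a start had at least 23, except the internal Rnf2 region with 4. Among the regions over starts of all protein-coding genes 14.2% had 10 or fewer, and the median was 24. The body of Cbx7 also held regions of 215, 303, 546 and 170 bp away from these starts. Intergenic regions of 227 and 388 bp lay upstream and downstream of the gene. Other regions at the locus were in Pdgfb, upstream, and at Apobec3, downstream, where 2 regions lay in the promoter. Among those in Pdgfb was a region of 314 bp in the promoter of Gm41361.

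Pcgf6 and Kdm2b encode subunits of variant PRC1, which lacks the Polycomb CBX proteins of the canonical complex. PCGF6 defines a variant complex that also contains MGA and E2F6. The gene spans chr19:47033617-47050906 on the minus strand, and its start lay near the upstream end of a region of 884 bp (chr19:47050190-47051073) that reached 169 bp upstream and 714 bp downstream of the protein-coding start and overlapped coding sequence. It was the widest start region after that of Eed. An intronic region of 382 bp lay 3300 bp downstream of the start, and the remaining 13797 bp of the gene, 79.8% of the body, held none. The other 6 regions belonged to the surroundings, among them the promoters of Taf5 (471 bp) and Nt5c2 (234 bp) and the promoter shared by Pdcd11 and Usmg5 (794 bp).

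KDM2B is a histone demethylase with a zinc finger that binds unmethylated CpG, through which it brings a variant PRC1 to CpG islands. The gene spans chr5:122870665-122989823 on the minus strand and had 11 regions in its body, the most of the members. At the 5′ end, where transcripts encoding up to 1309 residues start, the region was 232 bp wide (chr5:122989274-122989505) and also covered a start of A930024E05Rik on the opposite strand. It lay within the group of 6 transcripts, but not within 100 bp of the outermost start. Wider regions lay at internal starts. A region of 686 bp (chr5:122900108-122900793) covered the start of a transcript encoding 776 residues, 89468 bp downstream of the outermost start. Its central 300 bp had a GC content of 81.7% and 49 CpG dinucleotides, the highest of the 118 regions on both measures. Another of 545 bp (chr5:122951990-122952534) covered 2 start groups, the first of them, 37317 bp downstream, with a transcript encoding 286 residues. The longest stretch of the body without a region was 22910 bp, 19.2% of it. Outside the gene body were promoter regions of Rnf34 (970 bp), Orai1 (634 bp) and Gm2479 (160 bp).

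The base composition of the members followed their class. In the central 300 bp, promoter regions at the loci had a median GC content of 64.8% and 23.5 CpG dinucleotides, and promoter regions of the whole list 62.7% and 21. Intronic members had 50.0% and 4 CpG dinucleotides, as in the list. Intergenic members had 47.0% and 4, against 49.3% and 4. A central window over 50% masked as repeat was present in 18.6% of the members and 14.1% of the list. Among intronic members 5 of 35 had such a window, against 14.3% of all intronic regions, and among intergenic members 13 of 29, against 23.7%. The counts were 3 of 14 exonic members, against 3.35%, and 1 of 40 promoter members, against 2.32%. At the starts of the members the median was 26.5 CpG dinucleotides, against 24 at the starts of all protein-coding genes.

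**Figure D5:**
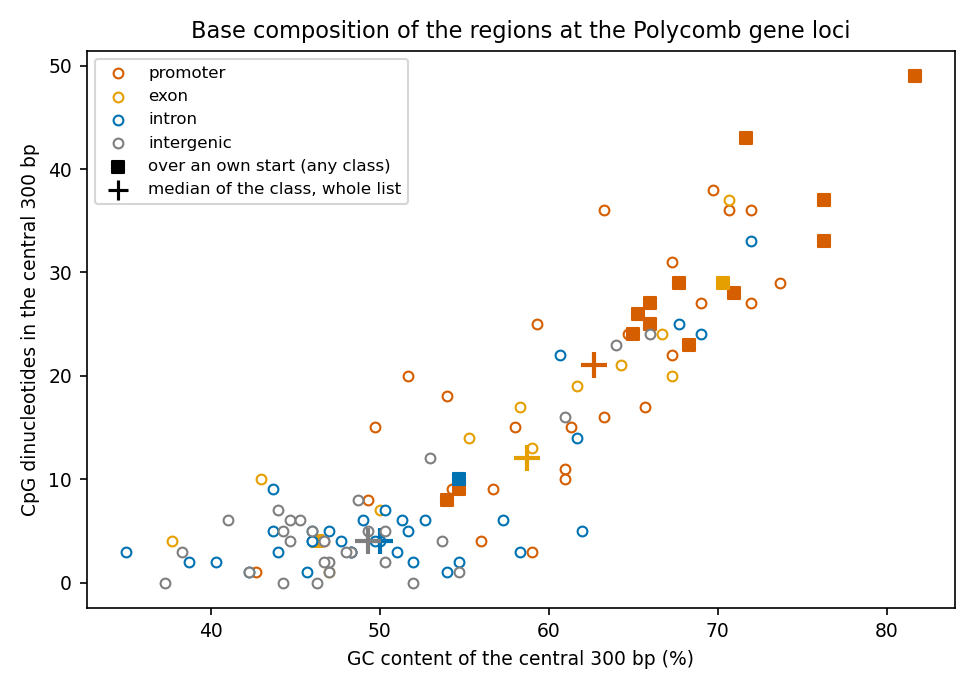
GC content in percent (x axis) and number of CpG dinucleotides (y axis) in the central 300 bp of each region, coloured by class; squares overlap a start of the member gene and crosses are the class medians of the whole list. Squares lie between 23 and 49 CpG dinucleotides except those of Cbx7 (8, 9 and 10) and the internal Rnf2 region (4).

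Words of 13 motifs were counted on both strands in the central 300 bp of the members and of all regions, flanking sequence included where a region was narrower. Of the member windows 52 (44.1%) held at least 1 word, against 41.9% of the list. SOX words (CCATTGT or CCTTTGT) were in 19 windows (16.1%, 95% Wilson interval 10.6 to 23.8%) from 8 of the 10 loci, and in 12.7% of all windows. Pcgf6 and Ring1 had none. Jarid2 had the region with the most SOX words, 3 over the region of 681 bp at 7248 bp upstream. The octamer was in 2 windows (1.69%) and in 2.15% of the list. The CTCF core word AGGGGGC was in 16 windows and 10.3% of the list, and the E-box CACGTG in 10 and 6.79%. The GC-box GGGGCGGGG was in 10 windows and 5.62% of the list. At the internal Kdm2b start, GC-box words lay 14 and 19 bp upstream of the start.

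The remaining words were less frequent. NFY (CCAATCA) was in 5 windows and 5.18% of the list, with words 58 bp upstream of the Suz12 start and 98 bp upstream of the outermost Cbx7 start. STAT (TTCCNGGAA) was in 3 windows and 1.31% of the list. E2F, ETS (CCGGAAGT) and ESRRB (TCAAGGTCA) were each in 2 windows, and in 1.15%, 1.74% and 1.85% of the list. The CRE word TGACGTCA was in 1 window and 0.765%, 59 bp upstream of an internal Jarid2 start. YY1 (AAGATGGCG) and NRF1 (GCGCATGCG) were in 0 of the 118 windows, which allows a share of up to 3.15%, and in 2.06% and 0.635% of the list. Over whole regions each was in 2 members (1.69%) and in 2.5% and 1.02% of the list, and NRF1 words lay in the region over the Eed start. By the same count NFY words were in 9 members (7.63%) and 6.72% of the list, and E-box words in 10 (8.47%) and 9.67%. STAT words were in 2 (1.69%) and 1.89%, and the CRE word in 1 (0.847%) and 1.16%. For these 4 motifs the members' share changed sides relative to the list. It also did so for NRF1 and for the octamer, which over whole regions was in 3.39% of the members and 2.66% of the list. Words of different motifs overlapped in 4 member windows, GC-box and CTCF core at Ring1, Cbx7 and Kdm2b and SOX and CRE at Jarid2. For each of the 13 motifs the 95% Wilson interval of the members' share included the share of the list.

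All 13 motifs were also counted over the whole length of the 16 regions over a member's own start and of the 15223 regions over a start of any protein-coding gene. E2F words were in 3 of the 16, against 6.02%, and NFY words in 4, against 12.7%. The CTCF core was in 6, against 28.4%, and SOX words were in 3, against 14.3%. The GC-box was in 3, against 28.3%, and the E-box in 1, against 18.3%. NRF1 and CRE words were each in 1, against 3.93% and 4.01%. ETS, YY1, STAT, octamer and ESRRB words were in none of the 16, against 8.72%, 4.35%, 2.42%, 2.12% and 1.19%. These counts rest on 16 regions of 10 genes and were not tested.

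Of the other genes of the complexes, 36 of 37 listed were found in the annotation, Ezhip being the one without a match. They had a median of 9.5 regions and 7.46 per 100 kb, with 392 regions in all. A region was centred in the own promoter of 34 of them, the exceptions being Pcgf2, a subunit of canonical PRC1, and Phc3, a Polyhomeotic protein, although a Phc3 start was inside a region. The most regions were at Auts2 (56), a gene of a variant PRC1, at Aebp2 (27), an accessory PRC2 subunit, and at Rybp (21), a subunit of variant PRC1. The fewest were at Lcorl (3), followed by Pcgf3, Pcgf5, Yaf2 and Bcorl1 with 5 each. Per 100 kb, Auts2 had 4.72 regions and Aebp2 21.7. Genes of Polycomb antagonists, 8 in all, had a median of 6 regions, and 6 had a promoter region. The 14 Trithorax genes had a median of 8 and promoter regions at 13, and the 10 genes of DNA methylation and demethylation a median of 13 and promoter regions at 10. Per 100 kb of window the medians were 3.83 for the antagonists, 7.38 for Trithorax and 8.89 for DNA methylation, against 7.78 for the members. Of all protein-coding genes 57.7% had a promoter region.

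Markers were examined in the same way, since the cells are labelled ES cells. Of 10 ES cell markers 7 had a region in their promoter and 8 a start inside a region, and Nanog had neither. Sox2 had a promoter region that did not reach its start, while the starts of Klf2 and Tfcp2l1 lay in regions centred outside the promoter. Of 14 markers of other cell types 4 had a promoter region and 7 a start inside a region. Over all protein-coding genes the shares were 57.7% and 64.0%. The marker lists are small and the difference between them was not tested. An accessible promoter is not a measure of expression.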

How the data were processed

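ATAC-seq was measured in 12 libraries, and the 4 ChIP samples were not used here. The authors aligned reads to mm10 with STAR 2.5.3a, kept unique reads, removed duplicates, called peaks per library with MACS2 2.1.1.20160309 merged them over all samples and removed those that overlapped peaks of ChIP input, so that a stretch without a region may hold a peak removed in that step. The deposited unit is other than a level: each entry gives the chromosome, start and end of a merged region and no score, read count or library. The study's methods name no shift of reads for the Tn5 insertion. Region ends, and distances measured from them, may therefore be off by a few bases. The members and lists were chosen with earlier results of these data known. Positions were compared with GENCODE M21 and the RefSeq sequence of GRCm38.p6 with Python 3.11.15, numpy 2.4.6 and pandas 2.3.3; matplotlib 3.10.9 made the plots. The centre of a region set its class, with promoters taking precedence over exons and exons over introns. The counting code was tested on simulated data. No test between groups was made. Named genes were the members, genes whose promoter holds the centre of a region at a locus, and, of the other Polycomb genes, those without a promoter region and the 3 with the most and 3 with the fewest regions, with all 4 genes tied behind the lowest named. Trithorax, DNA methylation and antagonist genes were counted as lists. Cul1, Gm26563, E230029C05Rik, Pdgfb and the single markers named were chosen after their values were seen, as were the E2F words printed. CpG dinucleotides were put in capitals at the paralogous starts after no searched word was found there. Other windows, promoter definitions, widths and start rules were tried as alternatives.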

Additional observations from a re-analysis of the deposited data

How the results depend on the processing

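The number of regions at the loci, 118, became 48 with windows of 10 kb, 188 with 100 kb, 35 in the gene bodies alone and 56 where the closest TSS had to belong to the member at any distance, of which 55 lay inside the windows of 50 kb. The share in promoters, 33.9%, became 64.4% with promoters of 5 kb to both sides, 24.6% with TSSs of protein-coding transcripts alone and 22% without the members' own promoter regions, an alternative chosen after seeing the data. The share of the whole list, 21%, became 45.7% with promoters of 5 kb to both sides and 15.2% with TSSs of protein-coding transcripts alone. By construction these alternatives take in more or less sequence, or fewer starts or regions. The other 16 values of the main results stayed within 1.5 times the count or inside the 95% interval, such as 91 regions of at least 200 bp and 10 member genes with a promoter region at 500 bp to both sides. Of the counts at single loci, 33 moved beyond 1.5 times and 47 did not, and over whole regions the shares of the 13 motifs stayed inside their intervals. No paired analysis was possible because no value is given for any single library.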
